A study of Mus musculus with 2 samples.

Results

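Genes of nitric oxide synthesis, arginine use and tetrahydrobiopterin supply were compared between mouse bone-marrow-derived macrophages treated with lipopolysaccharide (LPS) and untreated control macrophages. The group holds 10 genes given by name: Nos2, Arg1, Arg2, Ass1, Asl, Gch1, Gchfr, Pts, Spr and Qdpr. Each was read through every probe set (a set of short oligonucleotides for 1 transcript) that the annotation of the Affymetrix Mouse Genome 430 2.0 array assigns to that gene and no other. This gave 14 probe sets for the 10 genes, out of 34945 probe sets and 18193 genes with such an assignment. The macrophages of both conditions came from the bone marrow of C57BL6 mice and were grown in RPMI with 10% FBS and M-CSF, the cytokine that turns marrow precursors into macrophages. LPS, which Gram-negative bacteria carry on their surface, was the only stated difference, and the labels give neither its dose nor its duration, nor how many animals gave the cells. There was 1 LPS array and 1 control array, so no spread between replicates could be estimated, no test was run, and each difference describes these 2 arrays.

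Nitric oxide is made from arginine and oxygen by nitric oxide synthases, with citrulline as the other product. Nos2 encodes the inducible synthase, which mouse macrophages are known for making in response to LPS and interferon. Every nitric oxide synthase needs tetrahydrobiopterin (BH4), which is built from GTP by the products of Gch1, Pts and Spr and is regenerated by that of Qdpr. Arginases, encoded by Arg1 and Arg2, split arginine into ornithine and urea and so draw on the same substrate, while Ass1 and Asl encode the enzymes that turn citrulline back into arginine.

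The values are MAS5 signals, linear intensities with 1 value per probe set and array. A signal under its array's own median, 26.7 on the LPS array and 35.1 on the control array, was set to that median, here called the floor, before a ratio was taken. A gene is called measured where its brightest probe set was not under the floor on both arrays, which held for 11722 genes. Log2 ratios are LPS over control. Signals tended to be lower on the LPS array as a whole, with a ratio of -0.42 for the median of the measured genes. Ratios are as deposited, and ratios centred on that median stand beside them where a gene changes side of the 2-fold line. All 8 macrophage markers listed, among them Adgre1, Csf1r and Cd68, were above the floor on both arrays. Of 40 markers of other cell types, 10 reached the floor on the LPS array and 9 on the control array, and their summed signals were 1470 and 1181.

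The genes of the synthase and of the entry enzyme of BH4 synthesis were far higher on the LPS array. Those of the later BH4 enzymes and of argininosuccinate lyase were not. Nos2, the synthase, and Gch1, the entry enzyme of BH4 synthesis, differed by at least 12.3-fold and by 14.4-fold. Spr was 2.05-fold lower, and Asl, Pts and Qdpr lay within 2-fold. Ass1 was under the control floor and at least 1.67-fold higher, a bound that does not reach 2-fold. Arg2 was above the floor on the LPS array only and has no fold. Arg1 and Gchfr were under the floor on both arrays and have no fold. Of the 8 measured genes, 2 were thus at least 2-fold higher, a size that 8.22% of all measured genes reached, and 1 was at least 2-fold lower, a size that 26.2% reached. After centring, 3 of the 8 were higher, Ass1 being the addition, against 13.1% of measured genes, and 0 were lower, against 15.3%. Nos2, Ass1 and Arg2 counted as measured through the LPS array alone, so a count over the 8 leans towards higher ratios. Of the 5 genes above the floor on both arrays, 1 was higher (Gch1), 1 lower (Spr) and 3 within 2-fold. The same filter kept 9822 genes of the whole array, of which 827 passed 2-fold upwards and 2624 downwards. In RNA from whole cultures, a difference in RNA per cell and a difference in the number of cells that hold the transcript cannot be told apart.

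**Figure D1:**
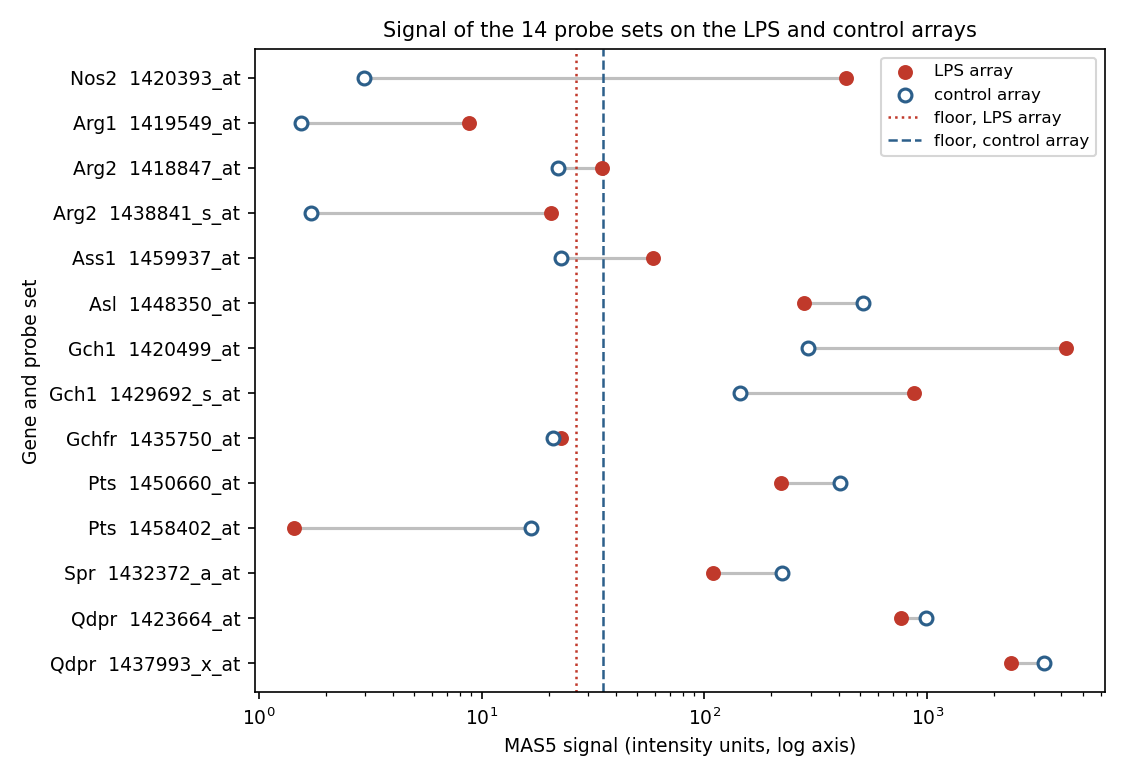
MAS5 signal (log axis) of the 14 probe sets of the 10 genes, with filled points for the LPS array, open points for the control array and vertical lines for the floor of each array. The Nos2 signal crosses both floors, both Gch1 probe sets lie far to the right on the LPS array, and the Arg1 and Gchfr probe sets lie left of both floors.

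Nos2 had 1 probe set, 1420393_at. Its signal was 430 on the LPS array, against 2.96 on the control array. The control signal lay under the floor, which makes the 12.3-fold difference a lower bound. On the log2 scale the bound was 3.62. It follows the floor, being 2.24 on the log2 scale with the floor at the 65th percentile of each array and 4.68 at the 35th.

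Gch1, which encodes GTP cyclohydrolase 1, the rate-limiting enzyme of BH4 synthesis, was above the floor on both arrays by both of its probe sets. Probe set 1420499_at had a signal of 4199 on the LPS array and 292 on the control array, a 14.4-fold difference. Probe set 1429692_s_at had 869 on the LPS array and 144 on the control array, a 6.02-fold difference. Both were higher on the LPS array, by log2 ratios of 3.84 and 2.59. The SD of the Gch1 ratios was 0.89. Over the 4494 genes with at least 2 probe sets above the floor on both arrays, the median of this SD was 0.28, and 6.25% of these genes had a larger one. By its brighter probe set Gch1 ranked 112th from the highest, where the ratios of other genes include floored ones. Of 1142 other measured genes within 0.5 log2 units of the same mean floored signal, here called genes of like brightness, 1.93% had a higher ratio.

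The Gch1 ratio stood apart from those of the next enzymes of the same pathway. The promoter windows of the 3 synthesis genes are shown, and their part in the ratios was not tested. The windows are the 250 bases before the start site in RefSeq's annotation of build GRCm38.p6, written 5′ to 3′ on the gene's strand. Capitals mark matches on either strand to 7 motifs: TATAAA of the TATA box, CCAAT of the CCAAT box, GGGCGG of the GC box, TGACG of cAMP response elements, TTCNNNGAA bound by STAT factors, GAAANNGAA bound by interferon regulatory factors, and the kappa-B consensus of NF-kB.
Gch1, chr14:47189414-47189663, minus strand: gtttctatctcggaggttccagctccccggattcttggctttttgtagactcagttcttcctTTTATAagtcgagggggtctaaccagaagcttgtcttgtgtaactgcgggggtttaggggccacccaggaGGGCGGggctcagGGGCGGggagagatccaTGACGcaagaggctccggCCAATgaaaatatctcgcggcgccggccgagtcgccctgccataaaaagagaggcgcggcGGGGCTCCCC
Pts, chr9:50528657-50528906, minus strand: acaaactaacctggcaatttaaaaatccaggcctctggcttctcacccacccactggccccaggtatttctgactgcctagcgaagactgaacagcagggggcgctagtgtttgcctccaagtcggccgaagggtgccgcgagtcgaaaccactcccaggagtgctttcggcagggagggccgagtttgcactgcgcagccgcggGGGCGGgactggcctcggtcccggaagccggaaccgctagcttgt
Spr, chr6:85137765-85138014, minus strand: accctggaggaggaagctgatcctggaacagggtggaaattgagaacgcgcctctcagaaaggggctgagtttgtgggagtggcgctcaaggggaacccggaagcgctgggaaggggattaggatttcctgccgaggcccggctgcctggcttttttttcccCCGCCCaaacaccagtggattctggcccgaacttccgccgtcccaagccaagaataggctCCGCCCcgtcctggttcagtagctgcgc

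The Gch1 window held a kappa-B match at positions -10 to -1 from the start, a TGACG at -88 to -84, a CCAAT at -70 to -66, a TATAAA on the opposite strand at -188 to -183, and 2 GC boxes. The Pts window held 1 GC box and the Spr window 2, both on the opposite strand, and neither held another of the motifs. Overlaps between matches numbered 0. Over all 32851 promoter windows of this length, 3.90% held a kappa-B match, 17.8% a TGACG, 33.9% a CCAAT, 12.4% a TATAAA and 32.7% a GC box. TTCNNNGAA was in 7.02% and GAAANNGAA in 7.13% of the windows, and in 0 of these 3. A match is a run of letters and was not measured as a binding site. RefSeq windows were at hand for 6 of the 10 genes, the others with one being Ass1, Gchfr and Qdpr. Nos2, Arg1, Arg2 and Asl were without one. The Ass1 window held 1 GC box, the Gchfr window 1 CCAAT and 2 GC boxes, and the Qdpr window 2 CCAAT and 1 GC box. No other of the motifs was found in these windows.

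The next enzymes of BH4 synthesis were not higher. Pts, which encodes 6-pyruvoyltetrahydropterin synthase, had a signal of 221 on the LPS array and 406 on the control array by probe set 1450660_at, 1.84-fold lower. Its other probe set, 1458402_at, was under the floor on both arrays, at 1.44 on the LPS array and 16.7 on the control array. Spr, which encodes sepiapterin reductase, the last step, had 109 on the LPS array and 223 on the control array by its single probe set 1432372_a_at. The Spr log2 ratio of -1.04 was just past 2-fold as deposited and lay at -0.61 after centring. The Pts ratio of -0.88 lay at -0.46 after centring. As deposited, both were below the medians of genes of like brightness, -0.60 around Pts and -0.73 around Spr. Of those genes, 62.6% and 61.4% had a higher ratio.

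For BH4 recycling the difference was under 2-fold, and for its feedback regulator no fold could be given. Qdpr, which encodes the dihydropteridine reductase that regenerates BH4, had 2377 on the LPS array and 3344 on the control array by probe set 1437993_x_at. By probe set 1423664_at it had 765 on the LPS array and 991 on the control array. Both probe sets were lower on the LPS array, by 1.41-fold and 1.30-fold, and the brighter one had a log2 ratio of -0.49 as deposited, -0.07 after centring and -0.65 after quantile normalization. The 505 other genes of like brightness had a median of -0.07, and 76.6% of them had a higher ratio. Gchfr encodes GFRP, the regulatory protein through which BH4 inhibits GTP cyclohydrolase 1. Its probe set 1435750_at gave 22.7 on the LPS array and 20.9 on the control array, under the floor on each, so no fold is given.

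The enzymes that return citrulline to arginine differed from each other. Ass1, which encodes argininosuccinate synthase, had 58.6 on the LPS array by its only unshared probe set, 1459937_at, against 22.7 on the control array. The control signal was under the floor, so Ass1 was at least 1.67-fold higher, and the bound passed 2-fold after centring, at 1.16 on the log2 scale. A brighter probe set that Ass1 shares with Gm5424, 1416239_at, was 5.63-fold higher, at 587 on the LPS array and 104 on the control array. It was not counted, and which gene gives its signal was not tested. Asl encodes argininosuccinate lyase, which releases arginine. Its signal by probe set 1448350_at was 281 on the LPS array and 517 on the control array, 1.84-fold lower. Its log2 ratio of -0.88 was below the median of -0.51 of genes of like brightness, of which 66.7% had a higher ratio.

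Both arginase genes were dim. Arg1, which encodes the cytosolic arginase associated with interleukin-4-treated macrophages, had 8.81 on the LPS array and 1.55 on the control array by probe set 1419549_at, both under the floor. Arg2, which encodes the mitochondrial arginase, had 34.7 on the LPS array, above its floor, and 21.9 on the control array, under its floor, by probe set 1418847_at. That LPS signal is below the control array's floor, so no fold is given. Probe set 1438841_s_at of Arg2 had 20.5 on the LPS array and 1.72 on the control array, both under the floor. Signals under the floor have no order. The floored ratio of Arg2 by its brighter probe set was -0.01 as deposited and from 0.03 to 0.42 over the 5 scalings, so its sign follows the scaling. No direction is drawn for either gene. Of 5 markers of alternatively activated macrophages, 3 reached the floor on the LPS array and 3 on the control array, with summed signals of 3528 and 6654. Neither Retnla nor Mgl2 reached a floor. Mrc1, the mannose receptor gene, made up most of these sums, with 3302 on the LPS array and 6294 on the control array. Clec10a had 69.2 on the LPS array and 202 on the control array, and Chil3 had 144 on the LPS array and 127 on the control array. Their part in the arginase values was not tested.

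**Figure D2:**
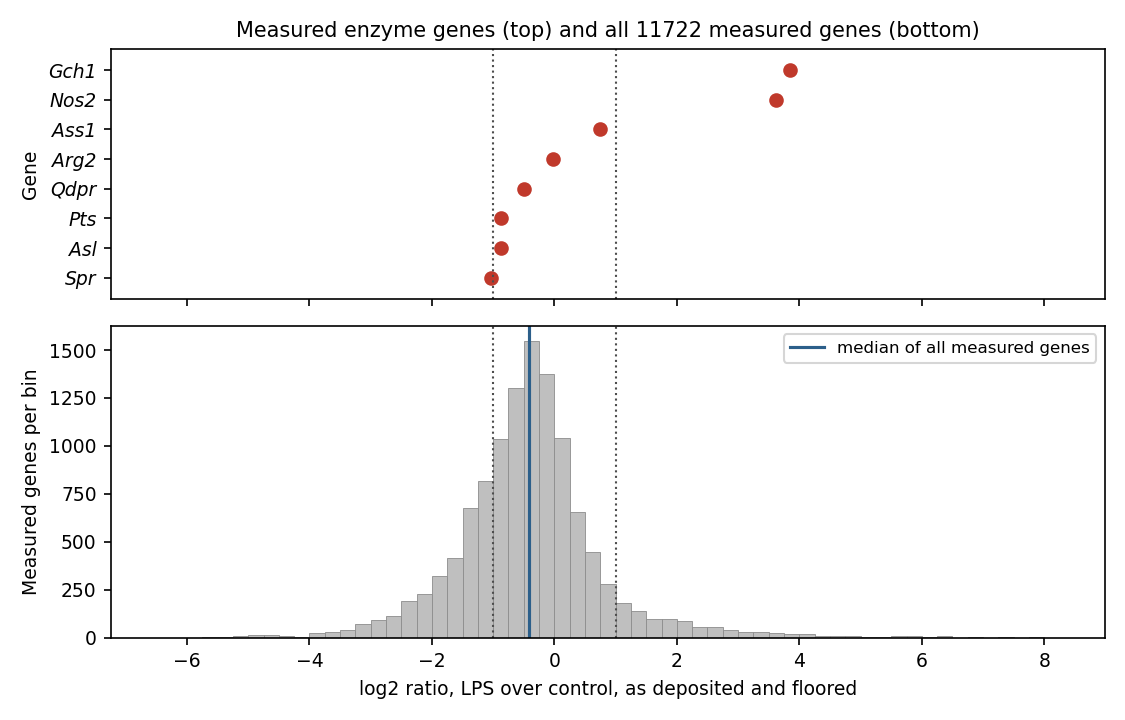
Log2 ratio (LPS over control, as deposited and floored) of the 8 measured enzyme genes above, and the histogram of all 11722 measured genes in bins of 0.25 below, with dotted lines at 2-fold and a solid line at the median of -0.42. The Arg2 point is a floored value for which no fold is given and shows no direction. Gch1 and Nos2 lie in the thin right tail, and Spr, Asl, Pts and Qdpr lie within the main body.

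Differences between the ratios of these genes do not depend on a common scaling of the arrays. The log2 ratio of Gch1 exceeded that of Pts by 4.72, that of Spr by 4.88 and that of Qdpr by 4.34. Over the alternatives in which both genes were measured, the lowest values of these differences were 4.10, 4.25 and 3.65. None of these alternatives read Gch1 by its dimmer probe set alone, which had a lower log2 ratio of 2.59. The ratio of Nos2 exceeded that of Asl by at least 4.50, with a range of 3.12 to 5.56 over the alternatives. The bound for Ass1 exceeded the ratio of Asl by 1.62, with a range of 1.58 to 2.25. Pts and Asl had ratios within 0.08 log2 units of each other under all 11 alternatives. The order of Nos2 and Gch1 was not settled, since their difference was -0.23 as deposited and ranged from -1.60 to 0.84.

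**Figure D3:**
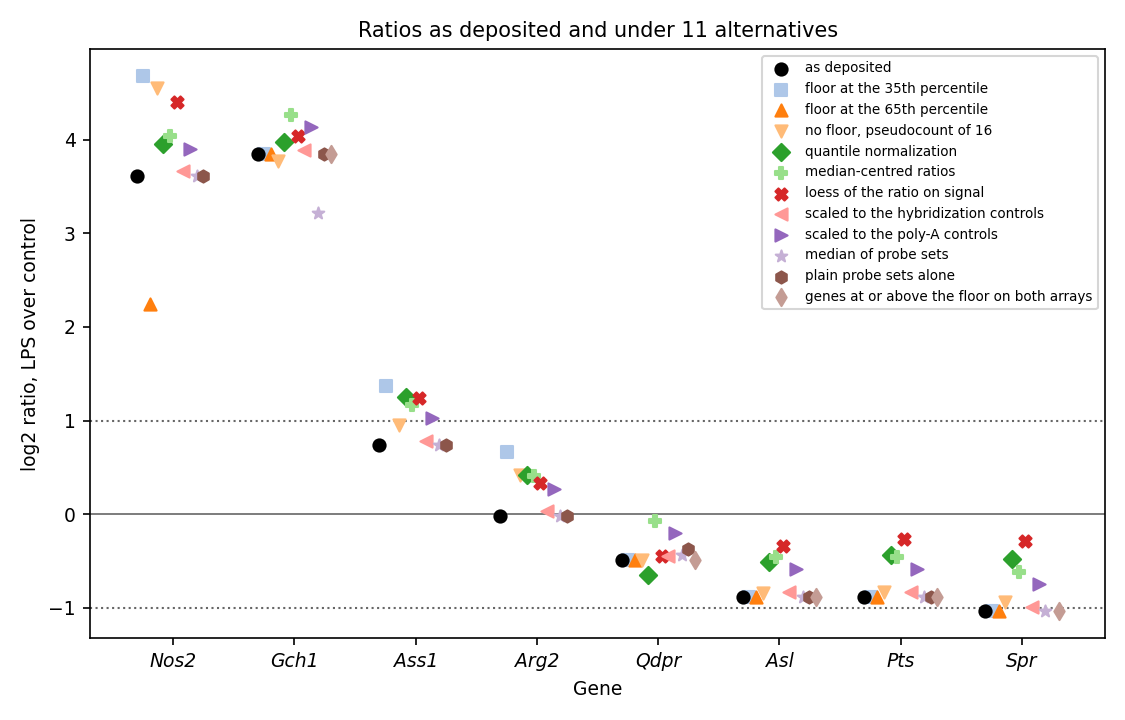
Log2 ratio (LPS over control) of the 8 measured genes as deposited (black circles) and under 11 alternatives that keep the 2-fold line, drawn dotted. The Arg2 points are floored values with no direction. Wherever they were measured, Nos2 and Gch1 stay at 2.24 or higher, Ass1 lies on either side of 1, and Asl, Pts, Spr and Qdpr lie below 0.

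Genes that supply, use or control the same pathway were read from 7 lists with 86 genes, of which 63 were measured. As deposited, 12 of these passed 2-fold upwards and 13 downwards, where 8.22% and 26.2% of all measured genes did. Their median ratio was -0.28 on the log2 scale, or -0.27 without 2 genes that have no fold, against -0.42 over all measured genes. After centring the numbers were 14 and 7, where 13.1% and 15.3% of all measured genes passed. The list of regulators, with 12 measured genes, gave 7 of the 12 higher and 3 of the 13 lower as deposited. After centring it gave 8 of the 14 and 2 of the 7. That list was not chosen independently of the treatment, so the pooled count of higher genes leans on it. Among the 7 arginine transport genes, all measured, 2 passed 2-fold upwards and 2 downwards (median 0.44). Slc7a2, which encodes the cationic amino acid transporter CAT2, had 1314 on the LPS array and 41.5 on the control array, 31.7-fold higher from a control signal near the floor, with 4 measured probe sets from 0.71 to 4.99 (log2). Slc7a7, which encodes a subunit of a transporter that exchanges cationic for neutral amino acids, had 592 on the LPS array and 177 on the control array, 3.35-fold higher. Slc38a9, which encodes a lysosomal arginine sensor, had 121 on the LPS array and 437 on the control array, 3.62-fold lower, with 7 probe sets from -2.07 to -0.17. Slc7a6 was 2.35-fold lower, and within 2-fold after centring, at -0.81.

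Of 8 measured genes of other synthases and their partners, 1 was at least 2-fold higher and 2 were lower (median -0.62). The shares over all measured genes were 8.22% higher and 26.2% lower. Cav1, which encodes caveolin-1, known to bind and inhibit the endothelial synthase, had 1380.1 on the LPS array and 180.2 on the control array, 7.66-fold higher. Nostrin and Nosip, which encode proteins that move the endothelial synthase away from the plasma membrane, were 3.54-fold and 2.47-fold lower, and Nosip was within 2-fold after centring, at -0.88. Nos3, the endothelial synthase gene, singled out after its values were seen, was barely above the floors, at 26.9 on the LPS array and 36.7 on the control array. Of 4 endothelial markers, 3 reached the floor on the LPS array and 1 on the control array, with summed signals of 298 and 97.1. Pecam1 and Cdh5 reached the floor on the LPS array alone, at 34.5 and 29.8, signals below the control array's floor of 35.1. Kdr had 225 on the LPS array and 63.8 on the control array, and Tek was under the floor on both. The part of these markers in the Cav1 value was not tested.

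Of 8 measured genes of methylarginine control, nitric oxide targets and nitric oxide removal, 0 were higher and 1 was lower (median -0.19, and -0.11 without Gucy1a1, which like Arg2 has no fold). Over all measured genes 8.22% were higher and 26.2% lower. Ddah2, whose enzyme is listed among those that degrade inhibitory methylarginines, had 66.6 on the LPS array and 178 on the control array, 2.68-fold lower. Its centred ratio of -0.999 was just inside 2-fold. Txnrd1, which encodes thioredoxin reductase 1, had 1845 on the LPS array and 958 on the control array, 1.93-fold higher. Its 3 measured probe sets had log2 ratios from 0.21 to 0.95. By the brightest one it passed 2-fold after centring, at 1.37, but not after quantile normalization, at 0.93. Of 5 measured genes of other BH4 enzymes and BH4 users, 0 were higher and 1 was lower (median -0.56), beside the same shares over all measured genes. Cbr1, a carbonyl reductase gene, had 111 on the LPS array and 447 on the control array, 4.02-fold lower, while Pcbd1, whose product helps to recycle BH4, had 56.2 on the LPS array and 52.7 on the control array.

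Downstream of arginase, 1 of 15 measured genes of ornithine, proline, polyamine and creatine metabolism was higher and 0 were lower (median -0.35), beside 8.22% and 26.2% over all measured genes. That median is the floored ratio of Agmat, which reached the floor on the LPS array alone and has no fold, and without it the median was -0.42. The higher one was Odc1, which encodes the ornithine decarboxylase that starts polyamine synthesis. It had 1831 on the LPS array and 619 on the control array, 2.96-fold higher, with 3 probe sets from 1.004 to 1.56. In the remaining urea cycle and the supply of aspartate to argininosuccinate synthase, 1 of 8 measured genes was higher and 4 were lower (median -0.85), and 1 was higher and 2 lower after centring. Over all measured genes 8.22% were higher and 26.2% lower as deposited, and 13.1% and 15.3% after centring. Slc25a12 and Slc25a13 encode the paralogous mitochondrial aspartate-glutamate carriers and lay on opposite sides. Slc25a12 had 1611 on the LPS array and 518 on the control array, 3.11-fold higher, with 3 probe sets from 0.50 to 1.64. Slc25a13 had 113 on the LPS array and 384 on the control array, 3.40-fold lower. Got1, which encodes the cytosolic aspartate aminotransferase, was 3.71-fold lower. Slc25a15, the ornithine carrier gene, was 2.64-fold lower, within 2-fold after centring at -0.98, and its other measured probe set was at -0.11. Fh1, the fumarase gene, named after its value was seen, was 2.43-fold lower, and within 2-fold after centring, at -0.86.

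Regulators known to act on Nos2, Gch1 or Arg1 included large differences in both directions. Of 12 measured, 7 passed 2-fold upwards and 3 downwards (median 1.25), and 8 were higher and 2 lower after centring. Over all measured genes 8.22% passed upwards and 26.2% downwards as deposited, and 13.1% and 15.3% after centring. Jak2, a kinase of interferon and cytokine receptors, had 4638 on the LPS array and 341 on the control array, 13.6-fold higher. Il4ra, the interleukin-4 receptor gene, had 2951 on the LPS array and 316 on the control array, 9.33-fold higher, with 3 probe sets from 1.92 to 3.22. Cebpb, a transcription factor gene, had 8200.2 on the LPS array and 1824 on the control array, 4.50-fold higher. Pparg, a nuclear receptor gene of alternative activation, had 19.9 on the LPS array, under the floor, and 264 on the control array, and was at least 9.89-fold lower. Several of these genes belong to the general LPS response, so the list was not chosen independently of the treatment.

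**Figure D4:**
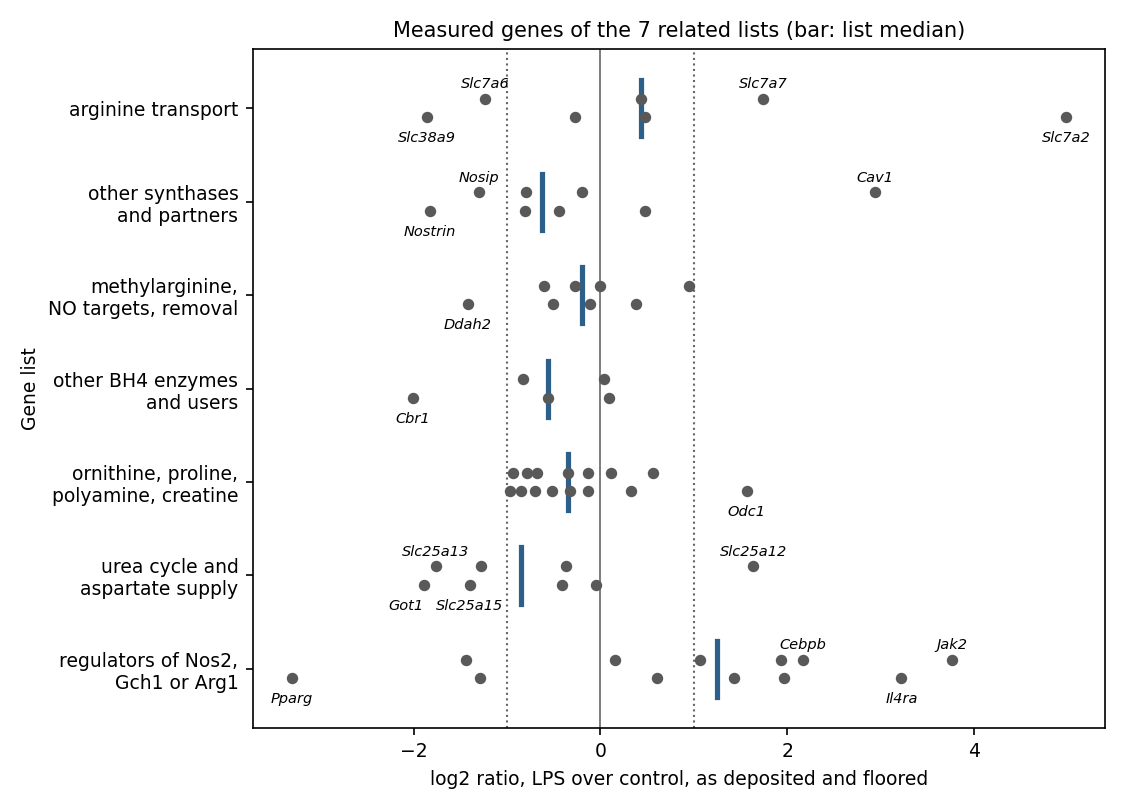
Log2 ratio (LPS over control, as deposited and floored) of every measured gene of the 7 related lists, each point a gene, each bar the list's median, with dotted lines at 2-fold. Slc7a2 is the farthest point to the right at 4.99 and Pparg the farthest to the left at -3.31, and the ornithine list lies within 2-fold except for Odc1.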

How the data were processed

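Total RNA was labelled with biotin and hybridized to 1 array per condition, and arrays were grouped by their titles. The deposited values are linear intensity signals that the authors obtained with MAS5, as the submitters' processing notes say. This algorithm joins matched and mismatched probes in 1 signal. Neither its version nor its scaling target is given in the sources used here, and no detection calls were used. Of 45101 probe sets, 64 were array controls. Of the rest, 34945 had 1 gene in the platform annotation, 932 had several and 9160 were not listed with one. All 10 member genes matched the RefSeq gene table by gene identifier. Signals were floored at each array's 50th percentile, and ratios are log2 LPS minus log2 control. The probe set of highest mean log2 signal stands for a gene. Genes were counted at 2-fold. The calculations, run in Python 3.11.15 with pandas 2.3.3 and statsmodels 0.14.6, were tested on simulated data. Members, lists, markers and motifs were chosen with earlier results of these data known. All 10 members were named, with up to 4 genes past 2-fold per related list and the gene most opposed to its list's median. Precision is limited by the number of arrays. The 13 alternatives covered floors, a pseudocount of 16, 5 scalings, the choice of probe set, genes above both floors and other thresholds, and 1 more, leaving genes with no fold out of medians, was chosen after seeing the data.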

Additional observations from a re-analysis of the deposited data

Results flagged for a closer look

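A signal lay outside the probe sets used for the enzyme genes. Probe set 1416239_at is assigned to Ass1 and Gm5424 together and was therefore not counted for either. It had 587 on the LPS array and 104 on the control array, 5.63-fold higher, or 2.92 on the log2 scale after centring. Which of these genes the signal comes from was not tested. The unshared Ass1 probe set was at least 1.67-fold higher.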

How the results depend on the processing

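No paired analysis was possible because each condition has 1 array, and for the same reason no array could be left out. Of the measured enzyme genes, 2 or 3 were higher by 2-fold under each alternative except the restriction to genes above the floor on both arrays, which leaves 1 because Nos2 drops out by construction. The third was Ass1, past 2-fold in 5 of its 9 alternatives that keep this line. The count lower was 1 as deposited. It was 0 with a pseudocount of 16, under each of the 5 scalings (quantile, median, loess, hybridization controls, poly-A controls), with plain probe sets alone and at 3-fold, and 3 at 1.5-fold. With plain probe sets alone, Spr drops out by construction, because its single probe set 1432372_a_at is not a plain one. The median log2 ratio of the measured enzyme genes, -0.25 as deposited and partly set by the floored Arg2 value, was -0.49 without Arg2, a choice made after seeing the data. It was 0.12 and -0.69 with the floor at the 35th and 65th percentile, 0.17 with median centring, 0.032 with loess, 0.035 with scaling to the poly-A controls and -0.88 with only genes above the floor on both arrays. Related genes at least 2-fold higher numbered 7 with plain probe sets alone, which leave fewer genes, against 12. Those lower numbered 8 with quantile normalization, 7 with median centring, 8 with loess, 6 at 3-fold and 23 at 1.5-fold, against 13. Among all measured genes, 1537 were higher with median centring, 1632 with loess, 612 at 3-fold and 1524 at 1.5-fold, against 964. Those lower numbered 1830 with quantile normalization, 1790 with median centring, 1464 with loess, 1428 at 3-fold and 4926 at 1.5-fold, against 3076. The share of genes past 2-fold that were higher was 46.2% with centring, 42.8% with quantile normalization and 52.7% with loess, against 23.9% as deposited. Why the scalings differ was not tested. The alternatives gave 294 values of 28 named genes. Of these values, 21 brought a gene past 2-fold within it, 8 brought a gene within 2-fold past it, and 0 turned the sign of a gene past 2-fold. That 0 says little. Some of the genes were within 2-fold as deposited and could not count. Shifts common to all genes were too small to turn such a sign, and the restriction to genes above both floors returns the deposited ratio by construction. Signals under the floor on 1 or both arrays limit Nos2, Arg1, Arg2, Ass1 and Gchfr.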
